A study of Mus musculus with 13 samples.

Results

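Interferon-stimulated genes are described here across irradiated oocytes of newborn mice. They are 47 genes listed by name, of 49585 genes with a summed read count, and all 47 passed the filter on low counts in every comparison. Some of them were named by the study from these same libraries, so the direction of the list at 6 h is not independent evidence. RNA was sequenced from oocytes of CD-1 mouse ovaries, taken at an age of 5 days, kept in culture overnight and exposed to gamma rays of a caesium source at 0.5 Gy or 0.2 Gy. The 0.5 Gy series had 8 libraries, in order of time a pair for 0 h, a pair for 1 h, a single one for 2.5 h, a pair for 4 h and a single one for 6 h, and the 0.2 Gy series had 1 library at each of these 5 times. Levels per library are given below in that order. The 0 h samples are labelled as 0 h after irradiation, and the methods describe them as taken before it. The 0.5 Gy libraries come from a first and a second generation of samples and the 0.2 Gy libraries all from the third. Dose and generation thus cannot be told apart. The single 0.5 Gy libraries of 2.5 h and 6 h are both of the second generation, while each pair holds 1 library of either. Changes at those 2 times are therefore partly mixed with generation. Each sample pooled several ovaries, and the p-values measure the spread between such pools.

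Interferons are secreted proteins that alarm cells to infection. Type I and type III interferons act through surface receptors and the kinases JAK1 and TYK2 to assemble ISGF3, a transcription factor with STAT2 and IRF9 among its subunits, which binds the interferon-stimulated response element in the promoters of its target genes. Many of the products block viral replication, and a few, such as USP18, damp the response.

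The response element is shown for the genes whose levels at 6 h stood out, with Rsad2 for contrast. Promoters are RefSeq windows of GRCm38.p6, from 250 bases before to 50 after a start site, and 36 of the 47 genes have one. The letters GAAANNGAAA, on either strand, were in a window of 17 of these 36 genes, or 47.2%, against 3.99% of the 27025 genes with a promoter. Capitals mark each match, all lie upstream of the start site, and each sequence reads 5′ to 3′ on the strand of its gene.
Ifit1, chr19:34640765-34640833, plus strand: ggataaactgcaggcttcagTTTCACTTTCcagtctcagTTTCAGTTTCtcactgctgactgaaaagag
Ifit3, chr19:34583353-34583436, plus strand: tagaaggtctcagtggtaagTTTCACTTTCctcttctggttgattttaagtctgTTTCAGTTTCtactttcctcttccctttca
Isg15, chr4:156200855-156200916, minus strand: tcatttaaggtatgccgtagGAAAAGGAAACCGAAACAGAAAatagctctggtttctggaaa
Rsad2, chr12:26456543-26456592, minus strand: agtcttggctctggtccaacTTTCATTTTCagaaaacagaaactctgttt

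Ifit1 and Ifit3 each hold 2 matches, Isg15 holds 3 that overlap, and Rsad2 holds 1. The stretch of Ifit3b is identical to that of Ifit3 and lies at chr19:34607749-34607832. The windows of Ifi44, Irf9, Irf7 and Oasl2 hold no match to these letters. Bst2 holds 2 matches, and its 6 h level lay inside the earlier range at both doses. Usp18, Rtp4, Mx2 and Parp9 are among the genes without a window. TTCNNNGAA, the letters of the gamma-activated site, were in 10 of the 36 genes (27.8%) and in 9.55% of all genes with a promoter. The p53 family half-site, whose letters are not given here, was in 6 of the 36 (16.7%), also against 9.55%. Its count over all genes, 2582, is the same as that of the gamma-activated site. Whether this background is right was not checked, so the 2 shares should not be compared. The median log2 fold change at 6 h of 0.5 Gy, defined below, was 0.89 for the 17 genes with the response element and 0.67 for the other 19. It was 0.50 with the letters of the gamma-activated site and 0.96 without, and 0.67 with the p53 family half-site and 0.83 without.

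The libraries held 15709549 to 30430104 estimated reads, the lowest being replicate 2 at 0 h of 0.5 Gy. That library also stood apart in granulocyte markers, whose summed level was 404 CPM (counts scaled to the size of the library) against 4.77 to 15.5 CPM in the other 0.5 Gy libraries. The label of oocytes was met by oocyte markers with a summed level of 2149 to 2763 CPM, but granulosa, stroma and red blood cell markers were present in every library too, at 1260 to 2091, 1841 to 3570 and 860 to 6145 CPM. Macrophage markers summed to 58.1 to 137 CPM. In such bulk samples, fewer cells of a type and less RNA per cell cannot be told apart.

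At 0 h the genes spanned a wide range. On the TPM scale, which corrects for transcript length, 3 genes had a median above 10 TPM over the 3 libraries at 0 h, 25 lay between 1 and 10 TPM and 19 below 1 TPM. Bst2, which tethers budding virions to the cell, was highest at 104.7 TPM (72.6 to 112.3), followed by Ifi27 at 61.5 TPM (56.0 to 74.3), whose ranges overlap only slightly, and Ifitm3, a block to virus entry, at 18.1 TPM, clear of both. From rank 4 on, neighbours overlapped in their ranges, except Psmb8 and Ifi35. Among the transcription factors the order was Irf1 at 8.48 TPM, Irf9 at 5.53, Stat2 at 4.35 and Irf7 at 1.17. At the bottom stood Oas2 at 0.144, Mx1 at 0.104 and Ifit3b at 0.0539 TPM. The 3 libraries differed by more than 2-fold in 25 of the 47 genes, up to 12.2-fold for Ifit1.

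**Figure D1:**
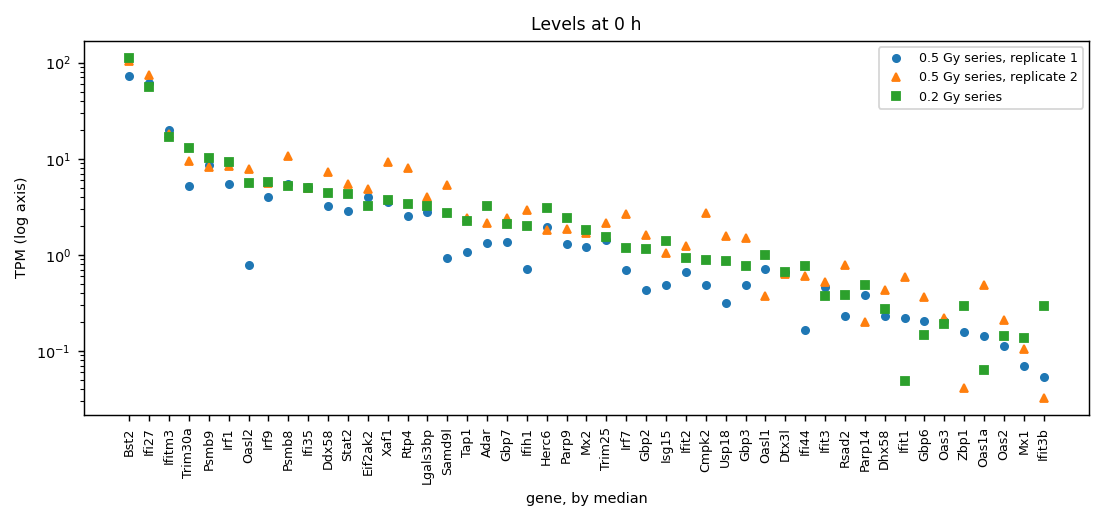
TPM at 0 h (log axis) of the 47 genes, ordered by their median, with 1 point for each of the 3 libraries. Bst2, Ifi27 and Ifitm3 sit above 10 TPM in all 3, and the libraries spread most among the low genes.

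The list stayed near its starting level at 1 h and 4 h and was somewhat lower by its median in the single library of 2.5 h. Compared with 0 h of 0.5 Gy, 23 of 47 genes were higher at 1 h, while 16 were so at 2.5 h and 21 by 4 h, and the median log2 fold changes were −0.01, −0.20 and −0.05, against 0.01, −0.04 and 0.00 for all genes tested. No gene of the list was called at these times by edgeR's quasi-likelihood test, where a call needs a Benjamini-Hochberg adjusted p under 0.05 over all genes and an absolute log2 fold change over 1. Calls over all genes were 0% at each of these times. For DESeq2, here and below, shares of all genes are over the genes it gave an adjusted p. These were 25708 at 1 h and 21293 at 4 h, of the 28468 genes tested. Shares of the list are over all 47 genes. DESeq2 called 1 gene of the list at 1 h (Gbp6, lower, with 0.105% of all genes called), 0 at 2.5 h and 1 at 4 h (Ifit3, lower, 0.643%), and limma-voom called 0 at each. At an unadjusted p under 0.05, 1 gene of the list was higher and 2 lower at 1 h, 0 and 2 at 2.5 h, and 1 and 1 at 4 h, where 2.17% and 1.81%, 3.01% and 2.57%, and 3.43% and 2.40% of all genes passed.

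Ifit3, of the IFIT family, had low levels at 4 h and its highest at 6 h. The 8 libraries of 0.5 Gy held 2.67, 2.17, 1.42, 0.743, 0.412, 0.351, 0.302 and 19.3 CPM. The 5 libraries of 0.2 Gy held 1.77, 0.550, 1.59, 0.260 and 3.85 CPM. Both doses thus had their lowest level at 4 h and their highest at 6 h. The fall was not steady at 0.2 Gy, and the levels at 4 h were not far above the floor. There, 3 reads equal 0.113 CPM in replicate 2 of 0.5 Gy and 0.111 CPM at 0.2 Gy. Over both doses, 4 h against 0 h gave a log2 fold change of −2.84 ± 0.67 (SE, adjusted p = 0.427), and 6 h against 4 h gave 5.17 ± 0.75 (adjusted p = 0.306), the smallest p of all genes in that comparison. The latter was 3.71 without the 6 h library of 0.5 Gy. DESeq2 called both. Of the 30-base stretches of Ifit3, 62.5% also occur in Ifit3b, so reads may be divided between the genes by estimate.

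**Figure D2:**
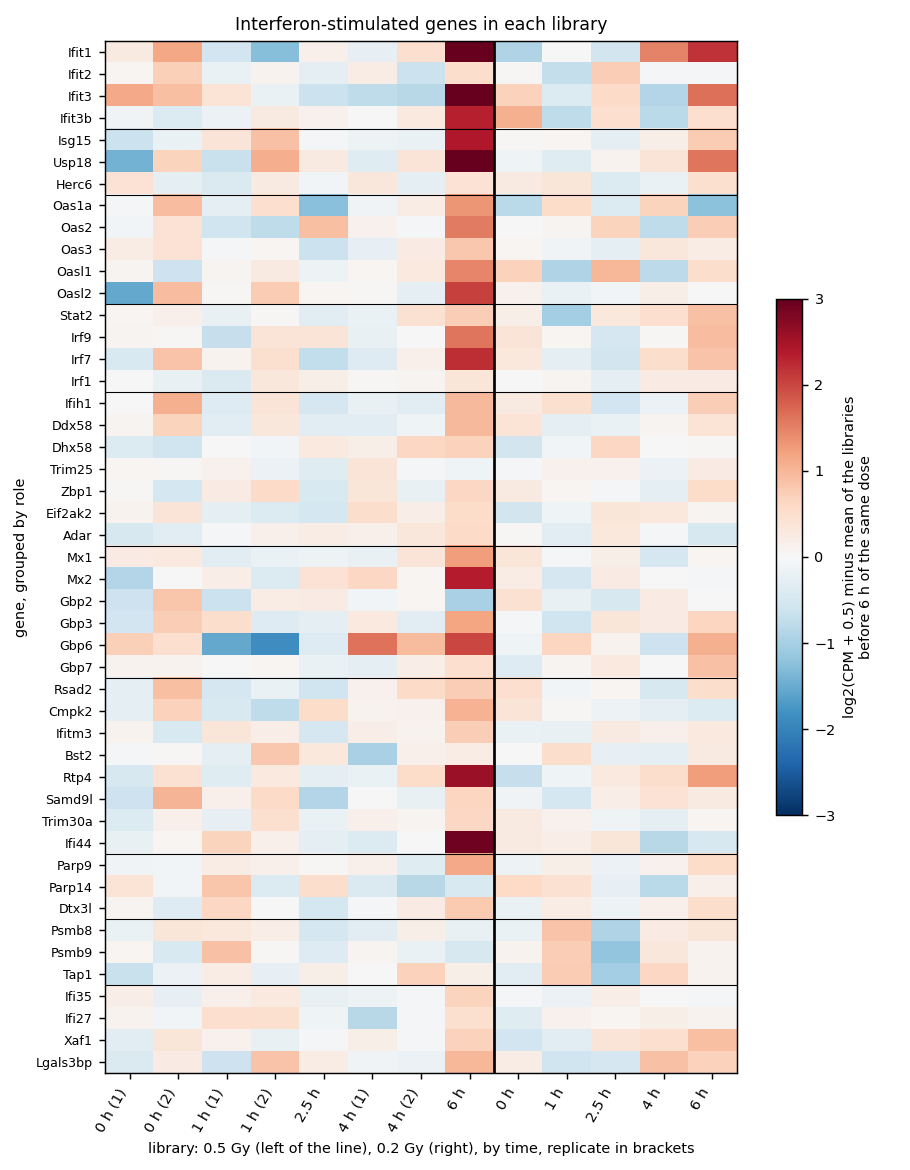
Log2(CPM + 0.5) of each gene (rows, grouped by role) in each of 13 libraries (columns), minus the mean of the libraries before 6 h of the same dose. The 6 h column of 0.5 Gy is the darkest red, with Ifit1, Ifit3, Usp18 and Ifi44 furthest from their earlier levels, and the 6 h column of 0.2 Gy is paler.

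The largest number of genes stood apart at 6 h of 0.5 Gy. The 6 h library was the highest of the 8 in 34 of 47 genes (72.3%), where 12.2% of all genes tested had that order, and 13 genes (27.7%, against 1.13% of all genes) exceeded their highest earlier library more than 2-fold. Against the 7 earlier libraries of that dose, 42 genes were higher and 5 lower, 19 had a log2 fold change over 1 (40.4%, against 7.74% of all genes), and the median was 0.83 against −0.06 for all genes. No gene of the list was called by edgeR, and calls were 0% of all genes tested. At an unadjusted p under 0.05, 19 genes were higher (40.4%, against 1.92% of all genes) and 0 lower (2.42%). Ifi44 and Rtp4 had the smallest p of all 31254 genes tested, and 8 genes of the list were among the 20 smallest. Against the 0 h libraries alone, 42 genes were higher at 6 h with a median of 0.96, and 18 were higher (38.3%, against 3.63% of all genes) and 0 lower (2.31%) at an unadjusted p under 0.05, again with no call by edgeR and 0% of all genes called, while DESeq2 called 7 genes of the list (14.9%, against 0.718% of all genes) and limma-voom 0. Other tools did make calls for 6 h against earlier, DESeq2 for 8 genes where it called 0.238% of all genes, 9 with its beta prior (0.171%), and limma-voom for 7 of the 9 genes it called in all (0.0288%). The 6 h value of each dose rests on a single library, and the earlier libraries are of 4 times, so that their spread includes changes over time.

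**Figure D3:**
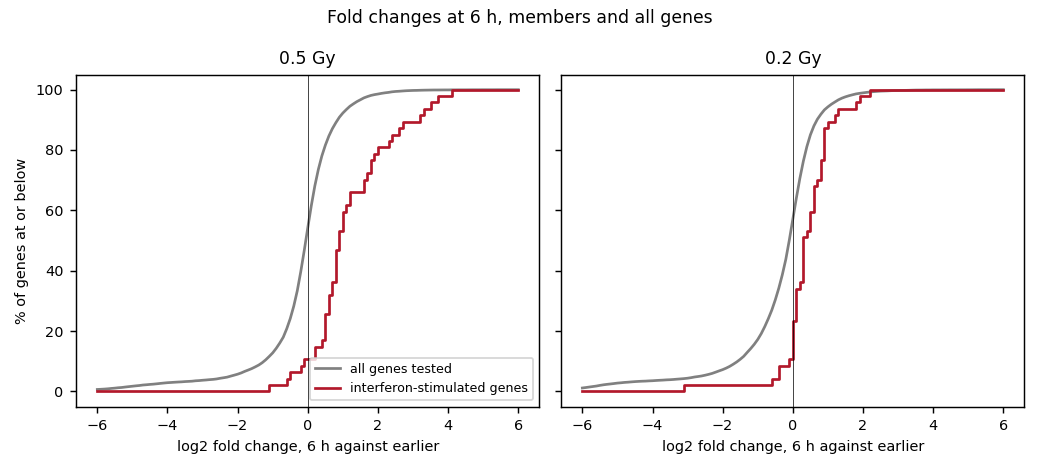
Share of genes at or below each log2 fold change at 6 h against the earlier libraries, for all genes tested (grey) and the 47 genes (red). The red line lies to the right of the grey one at 0.5 Gy, with medians of 0.83 and −0.06, and less so at 0.2 Gy, with medians of 0.28 and −0.10.

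In the ISG15 system, Isg15 encodes a ubiquitin-like modifier and Usp18 the protease that removes it. Usp18 had 1.05, 6.18, 2.14, 8.40, 4.56, 2.77, 4.94 and 46.2 CPM at 0.5 Gy. The lower dose gave 2.98, 2.48, 3.59, 4.53 and 11.0 CPM. At both doses the 6 h library lay above all earlier ones, 5.50-fold above the highest at 0.5 Gy and 2.44-fold at 0.2 Gy. The log2 fold change was 3.43 ± 0.56 (SE) at 0.5 Gy (adjusted p = 0.0931) and 1.71 ± 0.68 at 0.2 Gy (adjusted p = 0.915). Isg15 had 0.849, 1.36, 2.27, 3.42, 1.53, 1.40, 1.36 and 10.8 CPM at 0.5 Gy, and 2.01, 2.02, 1.52, 2.26 and 3.61 CPM at 0.2 Gy. Again the 6 h library of each dose was the highest. The log2 fold changes were 2.63 ± 0.50 (adjusted p = 0.294) and 0.89 ± 0.60 (adjusted p = 0.956). Herc6, a ligase of ISG15 in the mouse, was at 18.0 CPM in the 6 h library of 0.5 Gy, inside its earlier range of 9.58 to 18.1 CPM.

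In the IFIT family, which lies in 1 cluster on chromosome 19, Ifit1 recognises RNA caps that lack methylation. It had 2.30, 4.68, 1.05, 0.446, 2.06, 1.44, 2.79 and 25.8 CPM at 0.5 Gy. The 0.2 Gy libraries held 0.413, 1.19, 0.667, 4.34 and 7.26 CPM, with the 4 h library already above the others. The log2 fold changes were 3.62 ± 0.80 (adjusted p = 0.611) and 2.14 ± 0.96 (adjusted p = 0.932). Ifit2 had 9.17, 14.6, 7.56, 9.37, 7.18, 10.3, 5.39 and 12.8 CPM at 0.5 Gy and 9.97, 5.65, 16.6, 9.20 and 9.39 CPM at 0.2 Gy, so that the 6 h library lay inside the earlier range at both doses.

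Among the transcription factors, Irf9, the DNA-binding subunit of ISGF3, had 24.8, 24.1, 14.4, 31.0, 30.8, 20.1, 23.9 and 72.7 CPM at 0.5 Gy. Its levels at 0.2 Gy were 28.9, 22.6, 15.3, 22.5 and 41.8 CPM. The 6 h library was highest at both doses, with log2 fold changes of 1.59 ± 0.32 (adjusted p = 0.373) and 0.91 ± 0.36 (adjusted p = 0.915). Irf7, the factor that amplifies interferon production, had 2.30, 6.38, 3.64, 4.79, 1.80, 2.42, 3.73 and 17.3 CPM at 0.5 Gy, and 3.01, 1.77, 1.41, 3.56 and 4.53 CPM at 0.2 Gy. It too was highest at 6 h of both doses, with log2 fold changes of 2.27 ± 0.53 (adjusted p = 0.642) and 0.90 ± 0.63 (adjusted p = 0.962). Stat2 reached 33.3 CPM at 6 h of 0.5 Gy (earlier 15.8 to 27.3) and 33.4 CPM at 6 h of 0.2 Gy (earlier 8.68 to 25.7). Irf1 stood at 43.7 CPM in the 6 h library of 0.5 Gy against 43.2 CPM in the highest earlier one.

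Antiviral effectors were divided. Rtp4 had 8.24, 16.1, 8.94, 14.5, 9.65, 10.1, 17.2 and 72.2 CPM at 0.5 Gy. Levels at 0.2 Gy were 7.58, 11.4, 15.5, 18.3 and 30.8 CPM. Its log2 fold changes were 2.58 ± 0.37 (adjusted p = 0.0678) and 1.23 ± 0.44 (adjusted p = 0.873). Ifi44 had 1.13, 1.49, 2.51, 1.64, 1.08, 0.935, 1.43 and 13.8 CPM at 0.5 Gy (log2 fold change 3.24 ± 0.47, adjusted p = 0.0678). In the 0.2 Gy series it had 4.04, 3.82, 4.41, 1.63 and 2.21 CPM, so that its 6 h library lay inside the earlier range. Ifitm3 reached 46.5 CPM at 6 h of 0.5 Gy (earlier 19.5 to 35.5), while Rsad2, or viperin, an inhibitor of viral polymerases, was at 7.96 CPM inside its earlier 2.84 to 8.96 CPM and Bst2 at 151 CPM inside 66.0 to 228 CPM.

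The interferon-induced GTPases also differed among themselves. Mx2, a relative of the dynamins, had 4.04, 7.81, 9.02, 5.76, 10.7, 12.4, 8.18 and 42.0 CPM at 0.5 Gy. In the 0.2 Gy series it had 7.26, 4.22, 7.45, 6.24 and 5.94 CPM, with the 6 h library inside the range of the others. The log2 fold changes were 2.34 ± 0.40 (adjusted p = 0.131) and −0.08 ± 0.51 (adjusted p = 0.998). Gbp7, a guanylate-binding protein, had 32.7, 33.1, 30.8, 31.8, 26.4, 25.0, 35.4 and 43.2 CPM at 0.5 Gy and 24.2, 33.3, 38.6, 31.7 and 58.5 CPM at 0.2 Gy, the 6 h library being highest at both. Gbp2, of the same family, had 3.596, 10.7, 3.52, 6.91, 6.996, 5.49, 6.07 and 2.74 CPM at 0.5 Gy and 7.29, 4.31, 3.56, 6.16 and 5.06 CPM at 0.2 Gy. Its 6 h level was the lowest of the higher dose, with a log2 fold change of −1.17 ± 0.62 (adjusted p = 1). The GENCODE annotation lists Mx2 as a polymorphic pseudogene.

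Of the OAS family, whose enzymes make the activator of RNase L, Oas2 had 0.889, 1.49, 0.485, 0.372, 2.28, 1.13, 0.943 and 3.83 CPM at 0.5 Gy and 1.00, 1.07, 1.85, 0.371 and 1.97 CPM at 0.2 Gy. The margin of its 6 h library was thus small at 0.2 Gy. Oasl2, of the same family, had 4.61, 27.4, 14.7, 24.6, 14.8, 14.7, 11.7 and 60.6 CPM at 0.5 Gy and 19.2, 15.0, 16.3, 19.6 and 17.7 CPM at 0.2 Gy. Its 6 h library stood above the earlier ones at the higher dose and inside them at the lower. Oas1a was at 2.96 CPM at 6 h of 0.5 Gy and at 0.120 CPM at 6 h of 0.2 Gy, and 69.5% of its 30-base stretches recur in other genes. Of the 7 sensors of nucleic acid and their partners, Ddx58 (RIG-I) alone passed an unadjusted p under 0.05 at 6 h of 0.5 Gy, with a log2 fold change of 0.96 ± 0.36 (adjusted p = 1). Dhx58 (LGP2), a relative of RIG-I, had 0.687, 0.543, 1.09, 1.00, 1.46, 1.28, 1.96 and 2.06 CPM at 0.5 Gy and 0.738, 1.22, 2.30, 1.30 and 1.36 CPM at 0.2 Gy. Zbp1, a sensor of Z-form nucleic acid, had 0.727, 0.339, 0.930, 1.30, 0.374, 1.05, 0.528 and 1.35 CPM at 0.5 Gy and 1.59, 1.31, 1.15, 0.928 and 2.05 CPM at 0.2 Gy. Both genes were only slightly above their highest earlier 0.5 Gy library at 6 h. Adar, which edits double-stranded RNA, was at 47.2 CPM at 6 h of 0.5 Gy (earlier 22.3 to 40.0) but 20.6 CPM at 6 h of 0.2 Gy, its lowest there.

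Parp9, which acts with the ubiquitin ligase Dtx3l, had 14.2, 14.5, 17.9, 16.9, 15.68, 16.9, 11.7 and 34.1 CPM at 0.5 Gy and 13.2, 16.8, 13.04, 16.3 and 21.8 CPM at 0.2 Gy. The 6 h library was highest at both doses, with log2 fold changes of 1.15 ± 0.27 (adjusted p = 0.655) and 0.56 ± 0.30 (adjusted p = 0.945). Dtx3l itself had 13.9, 9.84, 20.3, 13.3, 8.98, 12.7, 15.69 and 22.9 CPM at 0.5 Gy and 11.0, 14.9, 11.4, 14.1 and 18.7 CPM at 0.2 Gy, also with the 6 h library on top. Parp14, another ADP-ribosyltransferase, had 5.62, 3.87, 7.72, 2.97, 6.17, 2.92, 2.07 and 2.89 CPM at 0.5 Gy and 5.64, 5.01, 2.89, 1.82 and 3.97 CPM at 0.2 Gy, with the 6 h library inside the earlier range at both. The antigen processing genes were the only role group with a negative median at 0.5 Gy, at −0.26 over its 3 genes. Psmb9, a subunit of the immunoproteasome, had 11.6, 7.87, 20.6, 11.3, 8.31, 11.7, 9.54 and 7.80 CPM at 0.5 Gy and 11.5, 18.1, 4.48, 13.8 and 11.5 CPM at 0.2 Gy. Tap1, a subunit of the peptide transporter, had 8.61, 12.3, 16.3, 11.7, 15.8, 14.0, 22.8 and 15.9 CPM at 0.5 Gy and 10, 22.0, 6.08, 19.9 and 13.9 CPM at 0.2 Gy. At 6 h of 0.5 Gy Psmb9 was thus just under its earlier libraries and Tap1 inside them.

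Of the remaining members, Xaf1, a partner of the apoptosis inhibitor XIAP, had 6.14, 10.4, 8.73, 6.76, 7.56, 8.998, 7.69 and 13.2 CPM at 0.5 Gy and 5.40, 6.54, 11.1, 12.1 and 16.1 CPM at 0.2 Gy, highest at 6 h of both. Lgals3bp, a secreted glycoprotein, had 5.37, 8.96, 4.61, 13.9, 8.79, 6.86, 6.52 and 15.4 CPM at 0.5 Gy and 7.58, 4.03, 4.33, 12.2 and 10.6 CPM at 0.2 Gy, where its 4 h library was above that of 6 h.

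**Figure D4:**
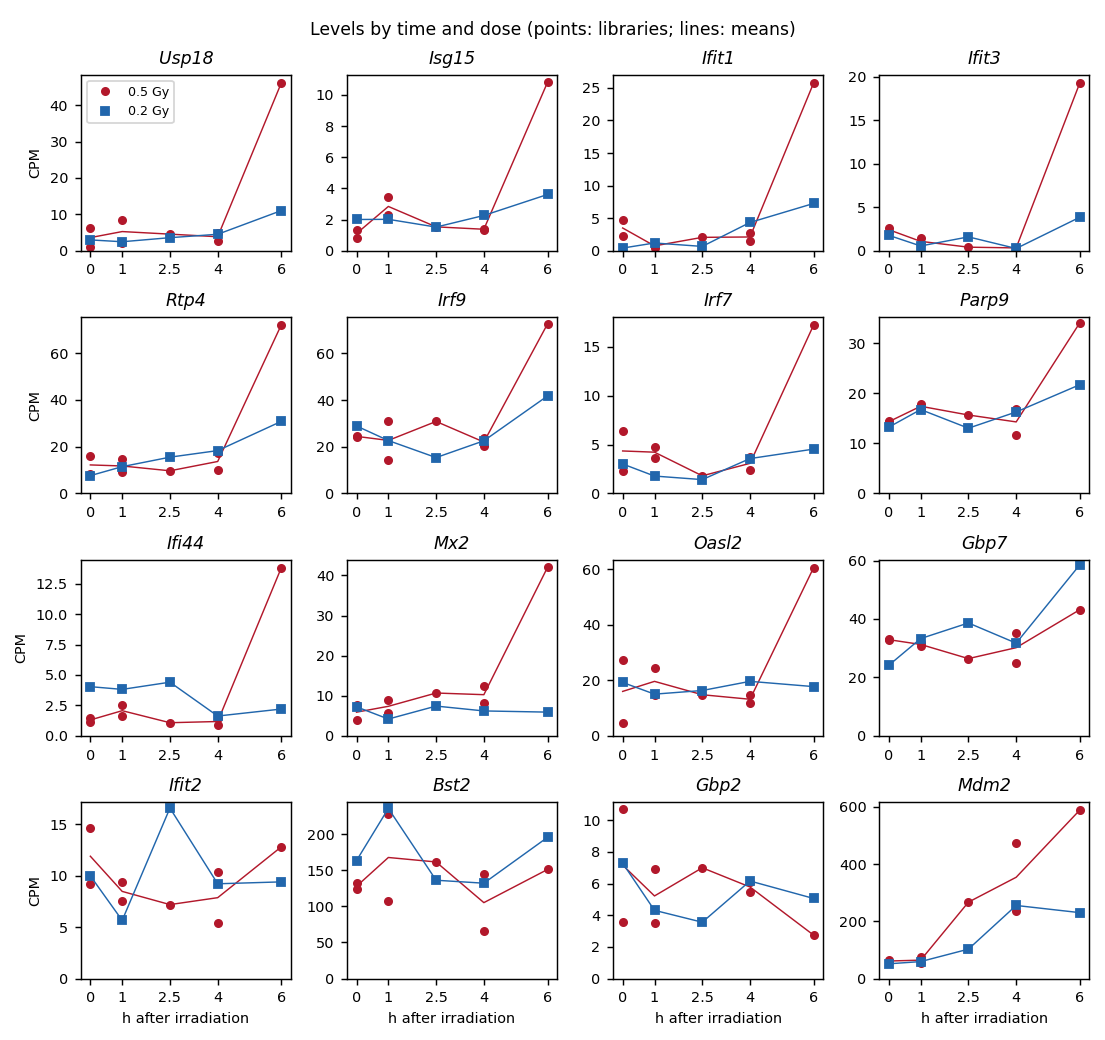
CPM against hours after irradiation for 15 genes of the list and Mdm2, with points for libraries and lines through means, red for 0.5 Gy and blue for 0.2 Gy. Usp18, Rtp4 and Irf9 have their highest point at 6 h of both doses, Ifi44 and Mx2 only at 6 h of 0.5 Gy, and Mdm2 is already at 267 CPM at 2.5 h.

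Targets of the p53 family had another time course in the 0.5 Gy libraries. Mdm2, the ubiquitin ligase of p53, had 58.0, 64.3, 52.9, 75.6, 267, 234, 473 and 589 CPM at 0.5 Gy, so that all libraries from 2.5 h on lay above the 4 of 0 and 1 h. Cdkn1a, which encodes p21, went from 3.72 to 11.5 CPM to 57.3 CPM at 2.5 h and 63.0 CPM at 6 h, and Pmaip1, which encodes NOXA, from 0.889 to 3.76 CPM to 16.2 and 20.9 CPM. Of the 47 genes, 25 were inside the range of their 0 and 1 h libraries at 2.5 h of 0.5 Gy, Usp18, Rtp4 and Irf9 among them, while 18 were below it (38.3%, against 18.9% of all genes) and 4 above it (8.51%, against 19.6%). The 4 above were Mx2 at 10.7 CPM, Oas2 at 2.28, Dhx58 at 1.46 and Adar at 36.6 CPM.

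At 0.2 Gy the 6 h library was the highest of 5 in 22 of 47 genes (46.8%), where 20.7% of all genes tested had that order. In 18 of 47 genes (38.3%, against 2.26% of all genes tested) the 6 h library was highest at both doses. These were 52.9% of the 34 at 0.5 Gy and 81.8% of the 22 at 0.2 Gy. Over all genes, 705 had that order at both doses, of 3804 at 0.5 Gy and 6459 at 0.2 Gy. Against the 4 earlier libraries of 0.2 Gy, 36 genes were higher and 11 lower, and the median log2 fold change was 0.28 against −0.10 for all genes. No gene of the list was called by edgeR, where 0.0064% of all genes were. DESeq2 and limma-voom called 0 as well. At an unadjusted p under 0.05, 5 genes were higher (10.6%, against 2.24% of all genes), Gbp7, Rtp4, Irf9, Usp18 and Ifit1.

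The difference between doses was tested in the same model. It was negative, that is, smaller at 0.2 Gy, in 37 of 47 genes, with a median of −0.57 against −0.05 for all genes, and no gene of the list was called by edgeR, where 0.0096% of all genes were, 0.0032% as higher at 0.2 Gy. Ifi44 had the largest deviation by p, −3.89 ± 0.91 (adjusted p = 0.885), and DESeq2, with 0.158% of all genes called, called it alone of the list, while limma-voom called 0. At an unadjusted p under 0.05 the difference was also negative for Mx2 (−2.42 ± 0.72), Oas1a (−4.69 ± 1.77), Oasl2 (−1.90 ± 0.84) and Adar (−1.05 ± 0.46), and for 2.70% of all genes. The value of Oas1a rests on 0.120 CPM at 6 h of 0.2 Gy, the level of 3 reads, which is compatible with 0. Under other settings it ranged from −4.87 to −1.12. With 1 library at 6 h for each dose, and each dose in its own generation, the difference is between these 2 libraries. At 0 and 1 h the doses gave 1 gene of the list higher at 0.2 Gy and 1 lower at an unadjusted p under 0.05 (6.51% and 6.29% of all genes), Ifi44 at 1.24 ± 0.47 and Samd9l at −1.07 ± 0.46, with no call by edgeR, where 0.0074% of all genes were called, and 0 by DESeq2 and limma-voom.

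**Figure D5:**
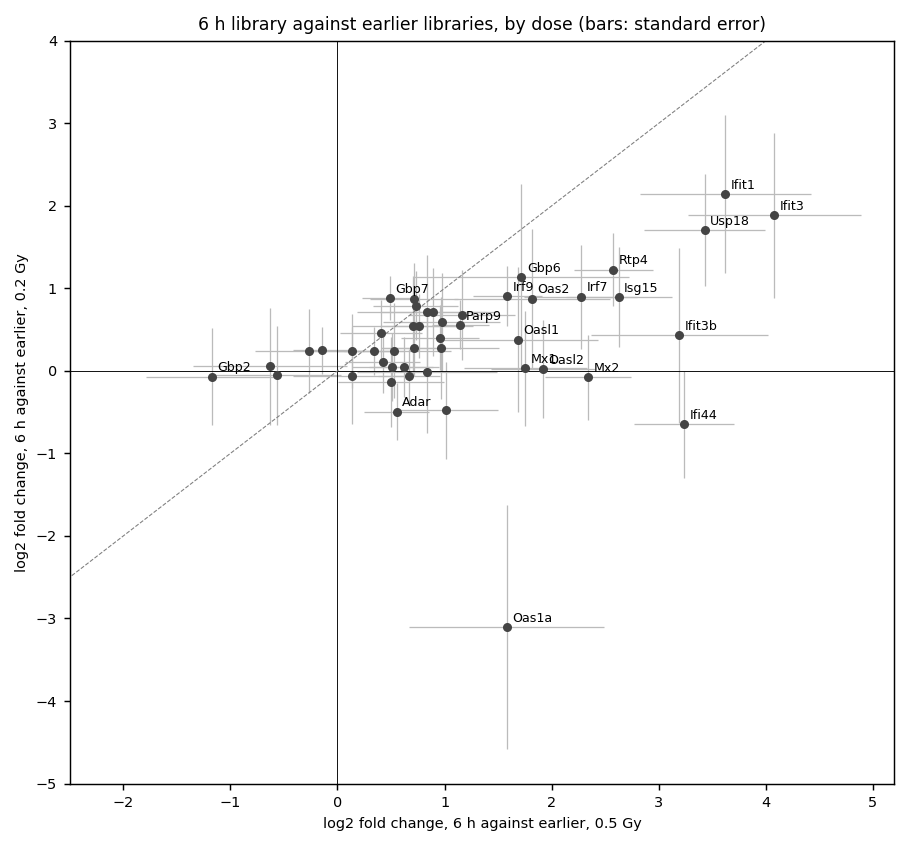
Log2 fold change at 6 h against the earlier libraries at 0.5 Gy (horizontal) and 0.2 Gy (vertical) for the 47 genes, with bars of 1 standard error and a dashed line of equality. Ifit1, Ifit3, Usp18 and Rtp4 are positive on both axes and under the line, and Ifi44 and Oas1a are positive at 0.5 Gy and negative at 0.2 Gy. Oas1a stood at the level of 3 reads at 6 h of 0.2 Gy, which is compatible with 0.

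With both doses in 1 model, 6 h against 0 h gave 43 genes higher and 4 lower, a median of 0.68 and 16 genes higher at an unadjusted p under 0.05 (34.0%, against 2.42% of all genes), and no call by edgeR, where 0.00702% of all genes were called. Against 4 h, 41 were higher and 16 passed at that level (1.66% of all genes) with 0 lower (1.72%), and calls were 0%. DESeq2 called 4 genes of the list against 0 h (8.51%, against 0.399% of all genes) and 1 against 4 h (2.13%, against 0.0737%), and limma-voom called 0 in either. These counts rested in large part on the 6 h library of 0.5 Gy. Without it 4 genes were higher and 1 lower against 0 h (490 and 877 of all 31091 genes tested), and 3 higher and 1 lower against 4 h (2.02% and 2.5%). The medians were then 0.31 and 0.41, against −0.08 and −0.07 for all genes. At 4 h against 0 h, 2 genes were higher and 3 lower at an unadjusted p under 0.05 (2.96% and 2.95% of all genes), with no call by edgeR (0.00351% of all genes), 1 by DESeq2 (0.535%) and 0 by limma-voom. Without replicate 2 at 4 h of 0.5 Gy 0 genes were higher and 1 lower (2.23% and 2.53% of all genes), and without the 4 h library of 0.2 Gy 1 and 1 (2.73% and 2.37%).

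Of a list of 99 other genes of the interferon pathway, 81 were tested at 6 h against the earlier libraries. At 0.5 Gy 11 were higher (13.6%, against 1.92% of all genes) and 2 lower (2.47%, against 2.42%) at an unadjusted p under 0.05, and at 0.2 Gy 6 (7.41%, against 2.24%) and 0 (against 3.01%), with no call by edgeR at either dose. The receptor genes Ifnar1, Ifnar2 and Ifngr1 stood inside their earlier ranges at 6 h of 0.5 Gy, at 72.0, 20.4 and 37.6 CPM, and Ifngr2 was at 134 CPM against 133 CPM in its highest earlier library. Abl1, a tyrosine kinase, was at 50.4 CPM inside 28.8 to 65.3 CPM. The immunity-related GTPases Tgtp1 and Ifi47 were chosen after their values were seen. They were higher at 6 h of 0.2 Gy, at 16.0 and 12.4 CPM, than at 6 h of 0.5 Gy, at 8.56 and 4.99 CPM. Irgm1, Irgm2, Igtp and Iigp1, of the same family, had log2 fold changes over 1 at 6 h against earlier of 0.5 Gy. Tgtp1 also passed that level there, and Ifi47 did not. The levels of the other members at 0.2 Gy are not given here, so Tgtp1 and Ifi47 do not stand for the family. Tgtp1 shares 84.6% of its 30-base stretches with other genes.

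Interferon genes themselves were scarce. Of 21 on the list, 20 had at most 20 reads in every library, and Ifnb1, which encodes interferon beta, had 9 reads at 6 h of 0.5 Gy and 3 at 6 h of 0.2 Gy. The exception was Ifnl2, which encodes an interferon lambda and is named after its values were seen. It had 0, 0, 0.283, 0, 0.599, 0.584, 1.36 and 2.10 CPM at 0.5 Gy, the last from 56 reads. The 0.2 Gy libraries lay between 0.0611 and 0.562 CPM. Its 6 h values had an adjusted p of 1 at 0.5 Gy, and 45.8% of its 30-base stretches recur in other genes, most of them in Ifnl3. Reads of up to 3 in a library are compatible with 0.

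Markers of other cell types did not have their highest summed level at 6 h of 0.5 Gy. Macrophage markers summed to 114 CPM there (earlier 71.6 to 137), with 2 of 11 markers highest in that library, and to 58.1 CPM at 6 h of 0.2 Gy (earlier 63.3 to 82.4), with 0 of 11. Endothelial markers summed to 123 CPM (earlier 72.0 to 147), granulosa markers to 1851 CPM (earlier 1379 to 2091) and stroma markers to 2525 CPM (earlier 2224 to 3570). None of the markers of any list was at 0 in every library. At 6 h of 0.2 Gy granulosa and stroma markers were at 2091 and 3149 CPM, above their earlier 1260 to 1855 and 1841 to 3041 CPM, and their part in the levels at that time was not tested.

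Reads of the leading genes fell on more than 1 transcript, for 8 genes chosen after their values were seen. Usp18-201, which codes for protein, took 94.2% of the Usp18 reads at 6 h of 0.5 Gy and 93.8% before. For Ifi44 the coding transcript went from 0.748 to 6.13 CPM and an intron-retaining one from 0.529 to 6.98 CPM. Rtp4-203 went from 5.36 to 49.4 CPM. The largest share of Oasl2 reads at 6 h of 0.5 Gy, 65.1%, was on a transcript annotated for nonsense-mediated decay. That transcript held 71.8% before. Reads of 30 bases leave such splits to the estimate.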

How the data were processed

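The authors quantified 30-base reads of 13 libraries with Salmon against mouse transcripts of GRCm38, and deposited estimated counts and TPM values per transcript, with no scaling between libraries and replicates kept apart. Deposited tables of the authors' own comparisons, made with DESeq2 1.24.0, and a table pooled over replicates were not used. Gene-level sums of these counts followed GENCODE release M21 and were rounded, and 402 transcripts that it assigns to no gene were dropped. TPM was summed likewise. Tests used edgeR 4.0.16 in R 4.3.3 (TMM, filterByExpr, quasi-likelihood) over all genes, with limma-voom and DESeq2 as alternatives, and levels are TMM-scaled CPM. Fits were of 8 libraries by time, of 13 by time and dose, of 13 by dose, 6 h and their interaction, and of 6 at 0 and 1 h. Calls required a log2 fold change beyond 1 in either direction with an adjusted p below 0.05.

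Depth was 15709549 to 30430104 estimated reads, and up to 3 reads are compatible with 0, for counting error only. Replicate numbers follow the generation in the labels. The study's own read totals per sample match the deposited libraries of 1 h and 4 h only with both numbers exchanged, so that the generation of these libraries is uncertain and a block with exchanged numbers was also fitted. Deviations of same-numbered libraries correlated at 0.119 to 0.217 over 18019 genes. The main fits held no replicate block, so the p-values given above ignore any pairing, and a block was fitted only as an alternative. Members and lists were chosen with earlier results of these data known. All 47 genes may be named. Those given in every library are the 2 per role with the smallest p in the fit of both doses at 6 h against 0 h, and those lower in that fit. Markers and the other pathway genes came from lists written out per cell type and function. Alternatives were other normalizations, filters, tests, a replicate block, and fits without 1 library. Sequences are from RefSeq. Figures were drawn with matplotlib.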

Additional observations from a re-analysis of the deposited data

How the results depend on the processing

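No gene of the list was called by edgeR with TMM in any comparison, and other normalizations and a stricter filter kept that count at 0. DESeq2, without and with its beta prior, called 1 and 1 genes at 1 h of 0.5 Gy (Gbp6, lower), 1 and 1 at 4 h (Ifit3, lower), 7 and 8 at 6 h, 4 and 5 at 6 h against 0 h of both doses, 1 and 1 at 4 h against 0 h, 1 and 1 at 6 h against 4 h, 8 and 9 at 6 h against earlier of 0.5 Gy, and 1 and 1 in the difference between doses. Limma-voom called 7 at 6 h against earlier of 0.5 Gy. With no filter on low counts edgeR called 3 at 6 h of 0.5 Gy, 1 at 6 h against 0 h of both doses, 1 at 6 h against 4 h and 3 at 6 h against earlier of 0.5 Gy. Leaving out 1 library gave 0 to 1 calls at 6 h against 4 h (1 without either 2.5 h library) and 0 to 1 at 6 h against earlier of 0.5 Gy (1 without the 4 h library of 0.2 Gy). For the calls with no filter on low counts and with 1 library left out, the share of all genes called is not given here. That also holds for the beta prior, except at 6 h against earlier of 0.5 Gy. Those counts therefore do not show whether the list differed from other genes. The cause of these differences was not tested.

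With 1 library left out, the log2 fold change of Ifi44 ranged from −0.61 to 3.24 (6 h against 0 h, both doses) and from −0.10 to 3.76 (6 h against 4 h), and that of Mx2 from −0.28 to 2.12 (6 h against 4 h). The lowest of each, a reversal, came without the 6 h library of 0.5 Gy. The replicate block, also with the numbers of 1 h and 4 h exchanged, left every count of calls at 0 and changed no call. Of the 10 genes highest by CPM at 0 h, 5 were also among the 10 highest by TPM. Among alternatives for single genes and medians, 1968 values kept their direction and side of the threshold, 69 passed it only under the alternative, 21 medians moved beyond their spread and 3 reversed. At 6 h each dose has 1 library, which limits every statement on that time.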
